A study of Spirodela polyrhiza and Pistia stratiotes and Colocasia esculenta with 79 samples.

Results

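The lower-wall-peaked transcripts of Spirodela polyrhiza were 142 of the 16332 transcripts measured in this duckweed. They were chosen from the expression values themselves. For each region the mean of log2(TPM + 1) over its libraries was taken, TPM being a level scaled to transcript length and to a common library total, so that transcripts can be set beside each other. The score of a transcript was its mean in the region labelled LowerWall minus the highest mean among the 6 other regions. A member had a score of at least 1 and averaged at least 5 TPM in LowerWall. Up to 150 transcripts were to be taken, and all 142 that met the rule were kept. A further 10 transcripts reached the score but averaged less than 5 TPM in LowerWall. The peak in LowerWall is therefore how the members were found, and their levels there are described without a test.

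Members close to the limits were weakly separated from the transcripts left out. The last members by score were Sp9509d017g001180_T001 (score 1.01) and Sp9509d003g008200_T001 (1.00). The first transcripts left out were Sp9509d006g006570_T001 (0.997) and Sp9509d012g002350_T001 (0.991). At the limit of level, Sp9509d001g015980_T001 averaged 5.03 TPM in LowerWall and was a member, while Sp9509d014g001370_T001 averaged 4.58 TPM and was not, although it was listed at 0 in every other region. Each of the 142 members came from a gene identifier of its own.

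Spirodela polyrhiza, the greater duckweed, floats as a flattened frond in which leaf and stem are not set apart as in other flowering plants. New fronds bud from pockets beside a node inside the mother frond and stay joined to it for a time by a stalk, the stipe. The upper face of the frond meets the air and the lower face rests on the water, where in this species it is often coloured by anthocyanins. All libraries were from clone 9509, with no treatment given in the labels, and were made from polyadenylated RNA of the labelled regions. The regions were LowerWall, Apical, Basal, NodeTract, Node, Tract and Stipe, each with 4 libraries labelled as biological replicates, 28 in all. Growth at 22 °C with fluorescent light is stated for Node and Tract alone, whose labels form a block apart from the rest. The sources used here do not give how many plants went into a library. The files do not pair the identifiers with gene names, so the LowerWall label was not checked against marker genes and no role is given here to any transcript. In such bulk samples, fewer cells of a type and less RNA per cell cannot be told apart.

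Some libraries stood apart from others of their region. LowerWall replicate 1 had the lowest summed level of the members among the LowerWall libraries, and once the most abundant member was set aside it had the highest. Stipe replicate 4 held 86 members at 1 TPM or more, against 109 to 117 in the other Stipe libraries. In Tract replicate 1 the 10 most abundant transcripts took 27.0% of all TPM, against 15.9% to 16.5% in the other Tract libraries. Some results that rest on these libraries are given with and without them. The medians per region, the mean shares of TPM and the coefficients of variation are given with all libraries only. Read depth is unknown, since TPM does not keep it.

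The members covered a wide range of levels. Their mean in LowerWall was at least 1000 TPM for 4 members, between 100 and 1000 TPM for 30, between 10 and 100 TPM for 89 and under 10 TPM for 19, with a median of 34.4 TPM. The same median was 9.50 TPM in Apical, 7.47 in Tract, 6.79 in NodeTract, 4.28 in Stipe, 2.61 in Basal and 2.55 in Node. The second region after LowerWall was taken by mean log2(TPM + 1). It was Tract for 49 members, Apical for 45, NodeTract for 22, Stipe for 11, Basal for 6 and Node for 4. The remaining 5 were listed at 0 in all 24 other libraries. Over the other 137 members the LowerWall mean TPM was between 1.42 and 11.7 times that of the second region. The median was 3.01 times. The second region did not always have the highest mean TPM of the other regions. Sp9509d017g002130_T001, for example, averaged 69.0 TPM in Tract, its second region, and 88.7 TPM in Stipe.

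**Figure D1:**
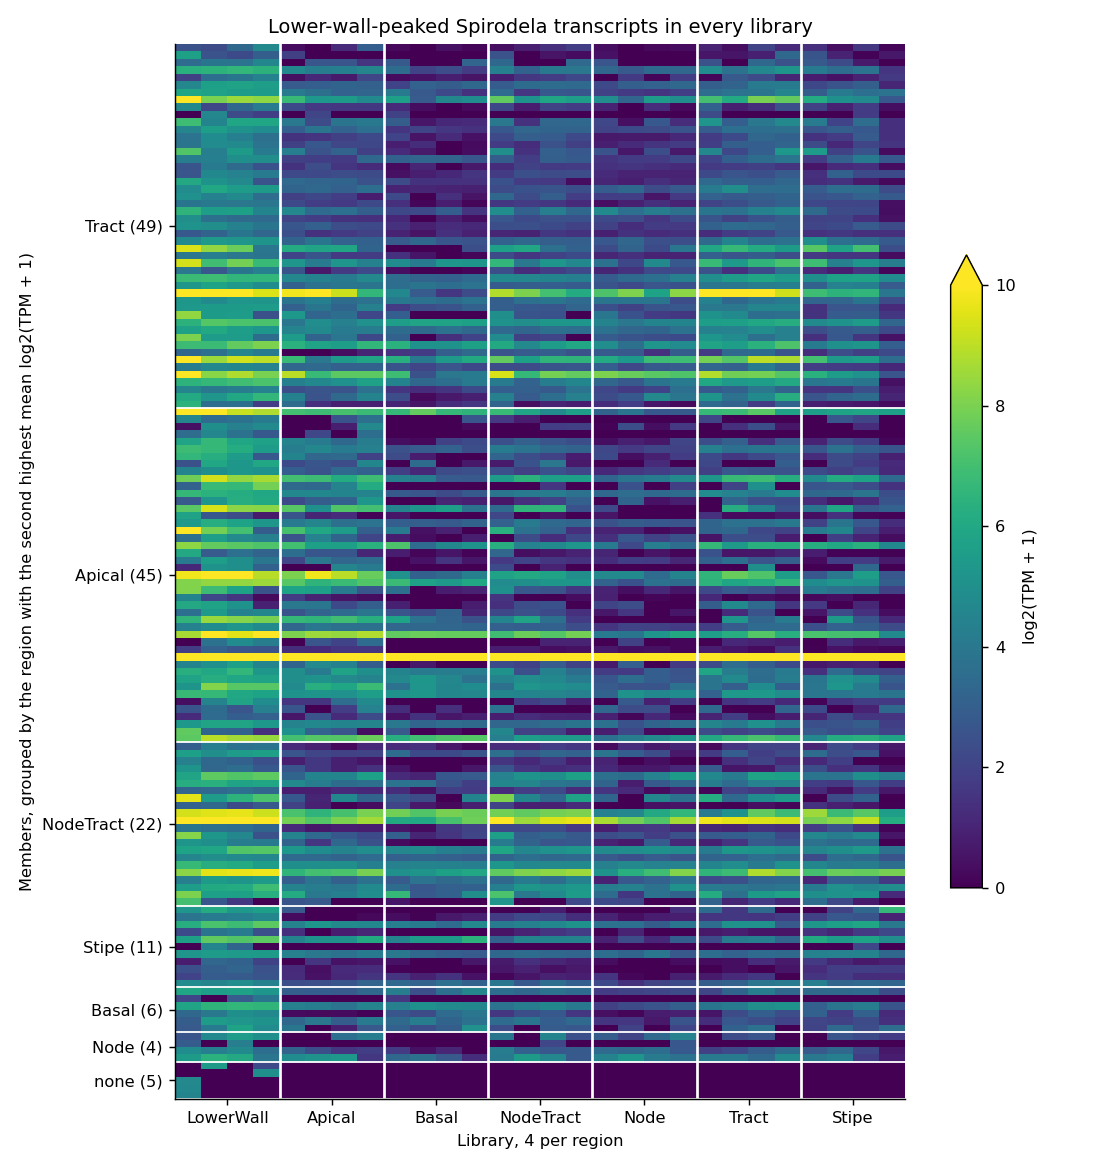
Level of each of the 142 members (rows) in each of the 28 libraries (columns, 4 per region) as log2(TPM + 1), where colours above 10 are shown as 10. Rows are grouped by the region with the second highest mean log2(TPM + 1), with the number of members in brackets. The 5 rows marked none were listed at 0 outside LowerWall. Basal and Node are the darkest column blocks.

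Single libraries separated LowerWall from the other regions for fewer members than the means did. All 4 LowerWall libraries lay above all 24 others for 60 members, or 42.3%. This separation held for 0.569% of all transcripts in the table, and since the rule used the same values nothing is read from the difference. Of the 82 members with overlap, 44 had 3 LowerWall libraries above every other library, 22 had 2 and 14 had 1. For the last 2 members no LowerWall library was the highest of the 28. Sp9509d009g009670_T001, which had the second highest score of all, was one of them. Its TPM was 36.0, 70.7, 38.9 and 49.3 in LowerWall, 0, 2.83, 9.13 and 101 in Stipe, and at most 10.7 in any other library, so its overlap was due to Stipe replicate 4. Without LowerWall replicate 1 the number of members with no overlap was 83, beside 1.25% of all transcripts.

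A single transcript accounted for most of the members' summed expression. Sp9509d001g016120_T001 measured 34135, 102180, 76454 and 79294 TPM in LowerWall replicates 1 to 4, which is 3.41%, 10.2%, 7.65% and 7.93% of all TPM in those libraries. It measured 27748, 31760, 30719 and 34502 TPM in Apical, so that LowerWall replicate 1 lay below Apical replicate 4 while the other LowerWall libraries stood above all Apical libraries. In the remaining regions it was lower but still abundant, with means of 17677 ± 1929 TPM in Basal, 17030 ± 2062 in Tract, 13477 ± 4459 in NodeTract, 10688 ± 2962 in Stipe and 7744 ± 1429 in Node (SD, n = 4 each). Its score was 1.13.

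The other 141 members together took 3.09%, 2.18%, 1.80% and 1.41% of TPM in the LowerWall libraries, a mean of 2.12% ± 0.720 (SD, n = 4). The next levels were 0.549% ± 0.0619 in Tract, 0.467% ± 0.0427 in Apical and 0.380% ± 0.127 in NodeTract, and the libraries of these 3 regions overlapped. Stipe followed with 0.222% ± 0.0761, Basal with 0.189% ± 0.0280 and Node with 0.170% ± 0.0352 (SD, n = 4 each), again with overlap. Tract and Apical libraries all lay above all Stipe, Basal and Node libraries, and every LowerWall library lay above all of them.

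**Figure D2:**
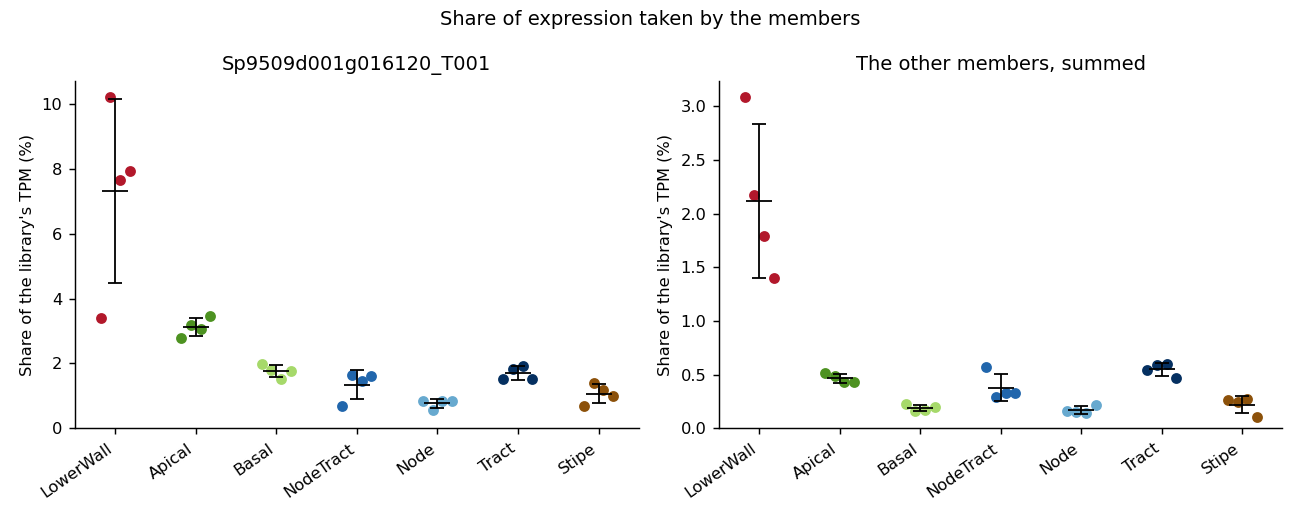
Share of each library's TPM taken by Sp9509d001g016120_T001 (left) and by the other 141 members summed (right), in percent, with 1 point per library, and the mean and SD of 4 libraries as a bar. On the left LowerWall replicate 1, at 3.41%, falls among the Apical points; on the right every LowerWall point, from 1.41% to 3.09%, lies above all others.

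After Sp9509d001g016120_T001, the most abundant members were Sp9509d017g002190_T001, Sp9509d010g007800_T001, Sp9509d017g002040_T001 and Sp9509d017g002010_T001. Sp9509d017g002190_T001 measured 8969, 5400, 2782 and 687 TPM in LowerWall and 1672, 2452, 1206 and 620 TPM in Tract. LowerWall replicate 4 fell into the Tract range, and the other LowerWall libraries stood above it. Sp9509d010g007800_T001 measured 3400, 1323, 2174 and 2235 TPM in LowerWall and 1448, 371, 686 and 820 TPM in NodeTract, where replicate 1 was the highest library in both regions. Sp9509d017g002040_T001 measured 872, 1843, 1317 and 485 TPM in LowerWall and 260, 881, 494 and 202 TPM in Apical, with replicate 2 highest in both. Sp9509d017g002010_T001 had the highest score of all members, 2.65. It measured 1086, 1252, 575 and 447 TPM in LowerWall and at most 195 TPM in any other library, so its groups did not overlap.

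The members with the highest scores were mostly of low level. The score was at least 2 for 12 members and its median was 1.36. Sp9509d014g005380_T001 (score 2.19) measured 49.0, 29.5, 44.1 and 50.2 TPM in LowerWall and at most 13.4 TPM elsewhere. Sp9509d006g008350_T001 (score 2.16) measured 13.4, 16.9, 18.9 and 23.1 TPM, against at most 5.60 TPM elsewhere. Sp9509d017g004840_T001 (score 2.23) measured 7.17, 18.6, 12.4 and 13.3 TPM, against at most 3.90 TPM. In these 3 members, and in Sp9509d014g008180_T001 (score 2.07), at 19.5, 9.37, 7.54 and 4.48 TPM against at most 3.19 TPM, LowerWall did not overlap with any other region.

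Of the 10 highest scores, 4 belonged to members whose LowerWall libraries overlapped with Apical. Sp9509d003g009970_T001 (score 2.44) measured 23.4, 10.2, 12.4 and 16.5 TPM in LowerWall and 0, 0, 4.75 and 11.8 TPM in Apical. Sp9509d017g002070_T001 (score 2.25) measured 10.8, 23.5, 12.8 and 5.80 TPM in LowerWall and 0, 3.39, 0 and 11.2 TPM in Apical, and was listed at 0 in the 20 libraries of the 5 remaining regions. In both it was Apical replicate 4 that reached into the LowerWall range. Sp9509d002g008890_T001 (score 2.25) measured 0.365, 30.6, 19.4 and 25.8 TPM in LowerWall, so that replicate 1 lay within the range of the other regions, and Apical replicate 4 reached above LowerWall replicate 3. Sp9509d011g000460_T001 (score 2.05) measured 4.62, 3.96, 9.06 and 25.0 TPM in LowerWall and 0.251, 0, 1.35 and 7.03 TPM in Apical, with replicate 4 highest in both regions.

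Many members had identifiers close to each other. Spirodela identifiers carry a number after the letter d and a number after the letter g. The files do not say what these stand for, and they are used here only to find neighbours in the list. Members with the same first part whose second numbers followed each other with gaps of at most 100 formed 18 runs holding 49 members, or 34.5%. With gaps of at most 10 there were 10 runs holding 20 members. How often transcripts in general fall into such runs was not counted, so nothing is read from these counts. Identifiers beginning Sp9509d017g held 17 members out of 419 transcripts, or 4.06%, where members made up 0.869% of the table and at most 1.44% of any of the other 19 first parts. Whether transcripts of a run resemble each other in sequence, so that reads may have been divided between them when levels were estimated, was not tested.

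The longest run reached from Sp9509d017g002010_T001 to Sp9509d017g002190_T001. The table held 12 transcripts in that span, of which 6 were members and 11 had their highest mean TPM in LowerWall. All 6 members were among these 11, having been chosen for a peak there. The span was picked for its members, and the share of all transcripts highest in LowerWall was not counted. The count of 11 is therefore a description. Sp9509d017g002130_T001 measured 712, 328, 209 and 14.2 TPM in LowerWall, at most 168 TPM in Stipe and at most 103 TPM in Tract. The span also held abundant transcripts that missed the limit of the score. Sp9509d017g002110_T001 averaged 978 TPM in LowerWall and 562 in Apical (score 0.84), Sp9509d017g002140_T001 averaged 956 TPM in LowerWall, 597 in Tract and 531 in Apical (score -0.02), and Sp9509d017g002170_T001 averaged 1309 TPM in LowerWall, 362 in Tract and 299 in Stipe (score 0.31). These LowerWall means rested on single libraries. Sp9509d017g002170_T001 measured 4680, 120, 305 and 129 TPM in LowerWall, and without replicate 1 its mean was 185 TPM, below Tract. Without replicate 2 the LowerWall mean was 546 TPM for Sp9509d017g002110_T001, below Apical, and 439 TPM for Sp9509d017g002140_T001, below Tract and Apical. Of the 12 transcripts in the span, 9 had their highest mean in LowerWall without replicate 1, 9 without replicate 2, 11 without replicate 3 and 10 without replicate 4. In Basal, Sp9509d017g002110_T001, Sp9509d017g002140_T001 and Sp9509d017g002170_T001 averaged 4.07, 5.89 and 1.93 TPM. Sp9509d017g002180_T001, at 3.40 TPM in LowerWall and 7.99 TPM in Node, was the exception of the span. Sp9509d017g002020_T001 was detected in LowerWall replicate 1 alone, at 21.9 TPM, and listed at 0 in the other 27 libraries.

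**Figure D3:**
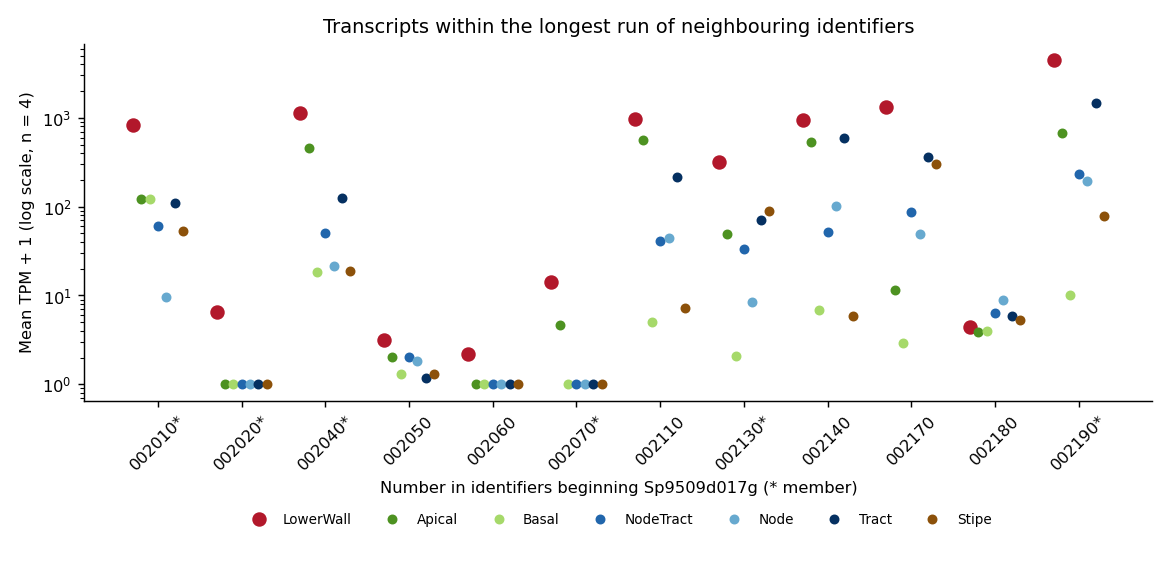
Mean TPM + 1 per region (log scale, n = 4 libraries per point) of the 12 transcripts between Sp9509d017g002010_T001 and Sp9509d017g002190_T001, with members marked by an asterisk on the horizontal axis. LowerWall (large points) is the highest in 11 of the 12 (9 without LowerWall replicate 1 or 2), and Apical or Tract is usually next. The 11 include the 6 members, which were chosen for a peak in LowerWall.

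Each of the next longest runs held 5 members, all with their highest mean in LowerWall, so the counts below are likewise descriptions. Between Sp9509d002g008750_T001 and Sp9509d002g008920_T001, 9 of 15 transcripts had their highest mean in LowerWall, and 7 without LowerWall replicate 1. Within this run the LowerWall libraries did not rank alike. Sp9509d002g008750_T001 measured 2293, 296, 450 and 251 TPM and Sp9509d002g008840_T001 51.0, 4.92, 3.68 and 7.12 TPM, both highest in replicate 1. Sp9509d002g008910_T001 measured 7.72, 109, 100 and 243 TPM and Sp9509d002g008920_T001 5.92, 36.5, 73.7 and 66.1 TPM, both lowest in replicate 1, as was Sp9509d002g008890_T001.

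In the run from Sp9509d008g004440_T001 to Sp9509d008g004560_T001, 8 of 11 transcripts had their highest mean in LowerWall. Its members varied less, with the exception of Sp9509d008g004480_T001, which measured 64.3, 53.8, 34.0 and 0.870 TPM in LowerWall. Sp9509d008g004440_T001 averaged 50.6 ± 11.8 TPM in LowerWall and 22.3 in Tract, Sp9509d008g004490_T001 47.8 ± 9.50 and 21.6, and Sp9509d008g004560_T001 21.5 ± 2.94 and 10.2 (SD, n = 4). Sp9509d008g004520_T001 averaged 81.5 ± 26.8 TPM in LowerWall and 37.4 in Apical. LowerWall did not overlap with any other region in these 4 members.

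The LowerWall libraries differed from each other in the members more than in other transcripts. The coefficient of variation over the 4 libraries, which is the SD as a percentage of the mean, had a median of 42.6% over the members. It was 23.8% over the 11473 transcripts that averaged at least 5 TPM in LowerWall. It exceeded 100% in 24 members (16.9%), against 2.93% of those transcripts. The members were chosen on the means of these same libraries, so no test of this difference was made. The steadiest members were Sp9509d008g006260_T001, at 13.9, 15.6, 14.4 and 14.3 TPM, Sp9509d013g008540_T001, at 39.7, 42.4, 42.9 and 44.8 TPM, and Sp9509d013g000550_T001, at 80.4, 86.3, 98.1 and 86.1 TPM. At the other end, 4 members tied because they were detected in 1 library of the 28. These were Sp9509d017g002020_T001, Sp9509d015g002860_T001 (24.9 TPM) and Sp9509d003g005140_T001 (24.7 TPM) in LowerWall replicate 1, and Sp9509d009g002590_T001 (30.4 TPM) in LowerWall replicate 4.

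Members were sorted by the LowerWall library in which they were highest. Replicate 2 was highest for 51 members, replicate 1 for 49, replicate 3 for 23 and replicate 4 for 19, which is 35.9%, 34.5%, 16.2% and 13.4% of the members. Over all transcripts that averaged at least 5 TPM in LowerWall, the shares were 21.0%, 35.7%, 20.5% and 22.8% in the same order of libraries, so replicate 1 was highest about as often in the members as in general. The sorting itself puts the highest library above the mean, and the ratios below were not taken over all transcripts, so they are descriptions. Among the 49 highest in replicate 1, that library stood at a median of 2.01 times the LowerWall mean and replicate 4 at 0.426 times. Among the 51 highest in replicate 2, that library stood at 1.45 times the mean and replicate 1 at 0.593 times. Replicate 1 was the lowest of the 4 for 65 members, where ties at the lowest value went to the first library. How often it was lowest over all transcripts was not counted, so nothing is read from this count. Sp9509d014g002590_T001, at 767, 43.7, 88.0 and 144 TPM, and Sp9509d007g009610_T001, at 51.0, 187, 155 and 178 TPM, show the contrasting patterns.

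The same replicate number often came out highest in another region. The library highest in LowerWall had the number of the library highest in NodeTract for 84 of the 133 members detected in NodeTract, or 63.2%. This was so for 46.6% of the 11454 transcripts that averaged at least 5 TPM in LowerWall and were detected in NodeTract. In Apical the share was 45.5% of 134 members beside 44.0% of transcripts, in Basal 46.3% of 123 beside 44.7%, in Stipe 39.6% of 134 beside 36.5% and in Tract 33.1% of 133 beside 24.2%. Sp9509d003g008200_T001 measured 133, 5.47, 2.10 and 0 TPM in LowerWall and 35.7, 0, 0 and 3.58 TPM in NodeTract, so that replicate 1 stood out in both. Over all transcripts tested, deviations from the region mean correlated at 0.218 to 0.612 between same-numbered LowerWall and NodeTract libraries. These values are descriptions, and the labels do not say what a number shares between regions.

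**Figure D4:**
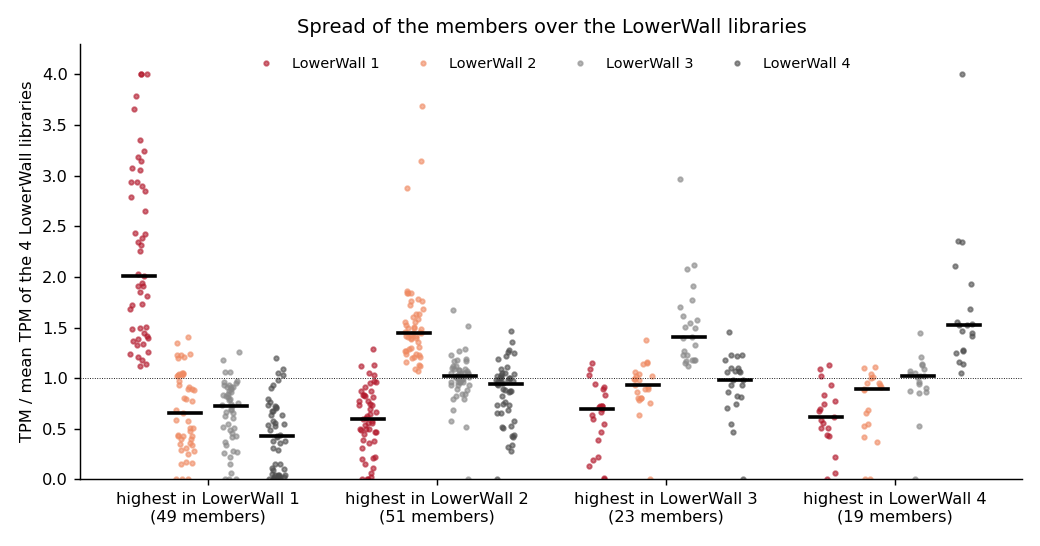
TPM of each member in each of the 4 LowerWall libraries, divided by its mean over them, with members split by the library in which they were highest; each point is 1 member in 1 library and black bars are medians. The 49 members highest in replicate 1 have a median of 2.01 there and 0.426 in replicate 4, while the 51 highest in replicate 2 have a median of 0.593 in replicate 1. The split itself puts the highest library of each group above 1.

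Differences between the regions other than LowerWall were then tested, since the rule takes only the highest of these regions and does not fix how they differ among themselves. It does cap them all below LowerWall. The tests were made over all 15802 transcripts with at least 1 TPM in at least 4 libraries, with limma on log2(TPM + 1), and calls were made at an adjusted p (Benjamini-Hochberg) under 0.05. Of the 142 members, 136 were tested, and the other 6 were below that level, among them the 4 detected in 1 library. LowerWall libraries counted towards this filter and entered the variances. In a later fit without them, 35 members were called for Basal against Apical, beside 1.44% of all transcripts. The counts were 56 for Node against Tract (24.5% of all), 49 for NodeTract against Basal (52.5%) and 29 for Stipe against NodeTract (46.1%). Each comparison was kept within a block of labels.

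In Basal against Apical, the members called were mostly lower in Basal. Of the 142 members, 27 fell in Basal (19.0%) and 2 rose (1.41%), and 107 of those tested did not pass. Over all transcripts tested, 1.48% were called, 0.671% lower and 0.81% higher in Basal. The median log2 difference was -1.05 over the 136 members tested and 0.11 over all transcripts. Sp9509d017g002190_T001 measured 24.1, 6.22, 1.99 and 3.81 TPM in Basal and 899, 1095, 586 and 97.0 TPM in Apical, without overlap (log2 difference -6.09, SE 0.87, limma adjusted p = 0.00024). Sp9509d017g002040_T001 measured 32.3, 7.72, 9.95 and 19.6 TPM in Basal against 260, 881, 494 and 202 TPM in Apical (log2 difference -4.61, SE 0.59, limma adjusted p = 6.7e-05). Both belong to the longest run, as does Sp9509d017g002130_T001, which was listed at 0 in 3 Basal libraries and measured 70.0, 55.7, 57.7 and 8.35 TPM in Apical (log2 difference -4.66, SE 1.03, limma adjusted p = 0.0203). The members that rose were Sp9509d016g005530_T002, at 5.43, 3.89, 10.2 and 14.1 TPM in Basal and at most 0.227 TPM in Apical (log2 difference 2.87, SE 0.48, limma adjusted p = 0.0019), and Sp9509d012g002580_T001, at 1.92, 2.45, 7.15 and 10.02 TPM in Basal and at most 1.04 TPM in Apical (log2 difference 2.10, SE 0.44, limma adjusted p = 0.0131). Sp9509d001g016120_T001 did not pass, with a log2 difference at -0.82 (SE 0.51; by limma the adjusted p was 0.536), although its Basal libraries, at 15167 to 19834 TPM, all lay below its Apical libraries.

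The size of this count depended on the fit, while the members called were mostly lower in Basal wherever any were called. Same-numbered libraries of Basal and Apical deviated together, and a block for the number brought the members called to 47, of which 45 were lower in Basal, beside 2.81% of all transcripts. With Basal and Apical libraries alone in the fit 19 were called, 18 of them lower, beside 0.669% of all transcripts. With the block in that fit 50 were called, 47 of them lower, beside 4.09%. If the fit of these libraries kept all 15802 transcripts, 2804 of which fell below the filter in them, 7 members were called without the block, beside 0.234%. Among these 7 were no longer Sp9509d017g002190_T001 (limma adjusted p = 0.0598), Sp9509d017g002130_T001 (0.0875) or Sp9509d012g002580_T001 (0.136). Adding the block there, limma called 0 members and 0 of all 15802 transcripts. Before adjustment, 83 members and 3471 of all transcripts had a limma p under 0.05. The lowest adjusted value among members was 0.0791. Leaving out Apical replicate 3 gave 19 members, beside 0.652% of all transcripts, and leaving out Basal replicate 3 gave 15, beside 0.627%. Sp9509d017g002130_T001 lost its call in limma when Apical replicate 1 (adjusted p = 0.0519), 2 (0.0654) or 3 (0.0748) was left out, and likewise for Basal replicate 2 (0.0536) or 3 (0.0706). That of Sp9509d012g002580_T001 was lost without Apical replicate 2 (0.0506) and without Basal replicate 3 (0.0602) or 4 (0.0573), and in the fit of the 2 regions (0.0906).

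In Node against Tract, every member called was lower in Node. Of the 142 members, 55 fell in Node (38.7%) and 0 rose, while over all transcripts tested 24.9% were called, 5.14% lower and 19.8% higher in Node. By unadjusted limma p under 0.05 the count was 67 of the 136 members tested, beside 6241 of all 15802 transcripts. With any of the other settings tried, 0 members were called higher in Node. The median log2 difference was -1.05 over the members tested and 0.28 over all transcripts. After median-of-ratios rescaling of the libraries, which moved the median over all transcripts to 0.06, 58 members were called, all lower in Node, while the split over all transcripts went from 3124 higher and 812 lower to 1712 and 1368. Mean TPM was higher in Tract than in Node for 120 members (84.5%), against 33.4% of all transcripts in the table.

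Sp9509d017g002010_T001 measured 8.06, 14.3, 5.67 and 6.05 TPM in Node and 102, 113, 168 and 52.8 TPM in Tract, without overlap (log2 difference -3.50, SE 0.38, limma adjusted p = 6.4e-07). Sp9509d008g001330_T001 was listed at 0 in all 4 Node libraries and measured 0, 36.6, 8.55 and 16.5 TPM in Tract, so no fold is given (limma adjusted p = 0.026). Sp9509d017g002130_T001 measured 4.03, 7.99, 3.78 and 14.2 TPM in Node and 61.7, 103, 69.4 and 42.2 TPM in Tract (log2 difference -3.14, SE 1.03, limma adjusted p = 0.0301). Its call was lost without Node column 1, 3 or 5 (limma adjusted p = 0.0693, 0.0627 and 0.0619), without Tract replicate 1, 2 or 3 (0.0715, 0.0523 and 0.0595) and with a pseudocount of 0.1 (0.0613). That of Sp9509d008g001330_T001 was lost without Node column 3 (0.0618) and without Tract replicate 2 (0.0748), 3 (0.0531) or 4 (0.0613), and at 0.0672 with only Node and Tract in a fit of all transcripts. Sp9509d001g016120_T001 measured 8391, 5603, 8567 and 8415 TPM in Node and 15282, 18345, 19233 and 15262 TPM in Tract. Its groups did not overlap, but it did not pass (log2 difference -1.15, SE 0.51, limma adjusted p = 0.099). That SE, like the one for Basal against Apical, drew on the spread within every region, LowerWall included. Without Tract replicate 1, 50 members were called, all lower in Node, beside 11.8% of all transcripts, with 1329 higher and 532 lower.

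The libraries compared in Basal against Apical and in Node against Tract are different ones. Both take their variance from the same fit. Of the 27 members that were lower in Basal than in Apical, 18 were also lower in Node than in Tract, which is 66.7% of the former and 32.7% of the 55 members lower in Node. Over all transcripts, 54 of the 106 lower in Basal were also lower in Node, which is 50.9% of these and 6.65% of the 812 lower in Node. Among transcripts that were not members, 36 of the 79 lower in Basal were also lower in Node. The difference between members and others was not tested. NodeTract, whose labels belong to the other block, averaged between Node and Tract for 75 members (52.8%), against 33.0% of all transcripts. It averaged above both for 44 members and below both for 14.

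NodeTract was next set against Basal. Of the 142 members, 45 rose in NodeTract (31.7%) and 4 fell (2.82%). Over all transcripts tested 52.2% were called, 38.1% higher and 14.1% lower in NodeTract, and nothing particular to the members is read from their share. The median log2 difference was 0.68 over the members tested and 0.38 over all transcripts. After rescaling, which brought the latter to 0.12, 39 members were called higher and 9 lower, and the split over all transcripts went from 6027 and 2226 to 4722 and 3365. Sp9509d017g002190_T001 measured 459, 261, 128 and 70.0 TPM in NodeTract, all above its Basal libraries (log2 difference 4.67, SE 0.87, limma adjusted p = 8.5e-05). Sp9509d017g002130_T001 rose likewise, at 49.2, 61.6, 12.1 and 7.56 TPM in NodeTract (log2 difference 4.00, SE 1.03, limma adjusted p = 0.0023). Sp9509d002g008750_T001 measured 673, 101, 242 and 191 TPM in NodeTract and 119, 4.56, 14.5 and 16.3 TPM in Basal, with replicate 1 highest in both (log2 difference 3.53, SE 0.82, limma adjusted p = 0.00088).

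Lower in NodeTract than in Basal was Sp9509d013g000520_T001, at 18.4, 48.1, 42.3 and 41.9 TPM in NodeTract and 77.8, 123, 152 and 164 TPM in Basal, without overlap (log2 difference -1.78, SE 0.39, limma adjusted p = 0.00047). Sp9509d017g002010_T001 measured 110, 56.5, 25.7 and 47.5 TPM in NodeTract and 99.2, 195, 101 and 90.0 TPM in Basal (log2 difference -1.12, SE 0.38, limma adjusted p = 0.0171), and its call was lost without Basal replicate 2 (0.0778) or NodeTract replicate 3 (0.0937) and with only these regions in a fit of all transcripts (0.0569). Sp9509d007g009610_T001 was near the threshold (log2 difference -1.27, SE 0.53, limma adjusted p = 0.0474). Its call was lost without any 1 of the NodeTract libraries (adjusted p from 0.0517 without replicate 3 to 0.171 without replicate 1), for Basal when replicate 2 (0.074), 3 (0.0735) or 4 (0.172) was left out, and at a pseudocount of 0.1 (0.0681).

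Stipe was set against NodeTract. Of the 142 members, 24 fell in Stipe (16.9%) and 7 rose (4.93%), where 45.7% of all transcripts tested were called, 26.4% lower and 19.4% higher. The median log2 difference was -0.51 over the members tested and -0.17 over all transcripts. Sp9509d014g002590_T001 measured 0, 3.85, 7.56 and 0 TPM in Stipe and 269, 23.4, 9.82 and 53.9 TPM in NodeTract (log2 difference -4.13, SE 1.13, limma adjusted p = 0.0047). Sp9509d002g008750_T001 measured 83.5, 44.1, 32.7 and 5.21 TPM in Stipe, all below its NodeTract libraries (log2 difference -2.99, SE 0.82, limma adjusted p = 0.0047). Sp9509d016g007390_T001 measured 2.65, 2.28, 5.57 and 2.64 TPM in Stipe and 22.8, 22.4, 14.3 and 12.1 TPM in NodeTract (log2 difference -2.15, SE 0.46, limma adjusted p = 0.00066). Without Stipe replicate 4 the count of members called was 19, of which 12 were lower in Stipe, and the calls over all transcripts fell to 37.7%.

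The named members called higher in Stipe lost their calls when certain libraries were left out. Sp9509d009g009670_T001 (log2 difference 2.80, SE 0.92, limma adjusted p = 0.0157) had 101 TPM in Stipe replicate 4 and lost its call without that library (0.106), as in the fits of the 2 regions with all transcripts kept (0.0929, and 0.0774 with the block). Sp9509d007g009610_T001 measured 66.4, 43.9, 54.2 and 29.1 TPM in Stipe and 7.59, 21.4, 21.6 and 21.2 TPM in NodeTract (log2 difference 1.43, SE 0.53, limma adjusted p = 0.0313), and lost its call without NodeTract replicate 1 (0.116) or Stipe replicate 1 (0.0831) or 3 (0.0678). Sp9509d005g001120_T001 (log2 difference 1.02, SE 0.41, limma adjusted p = 0.0453) lost its call without NodeTract replicate 2 (0.202), 3 (0.0635) or 4 (0.0712), without Stipe replicate 2 (0.12), 3 (0.0777) or 4 (0.0961), with a pseudocount of 0.1 (0.0515) and in 6 other fits, with adjusted p between 0.061 and 0.156.

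**Figure D5:**
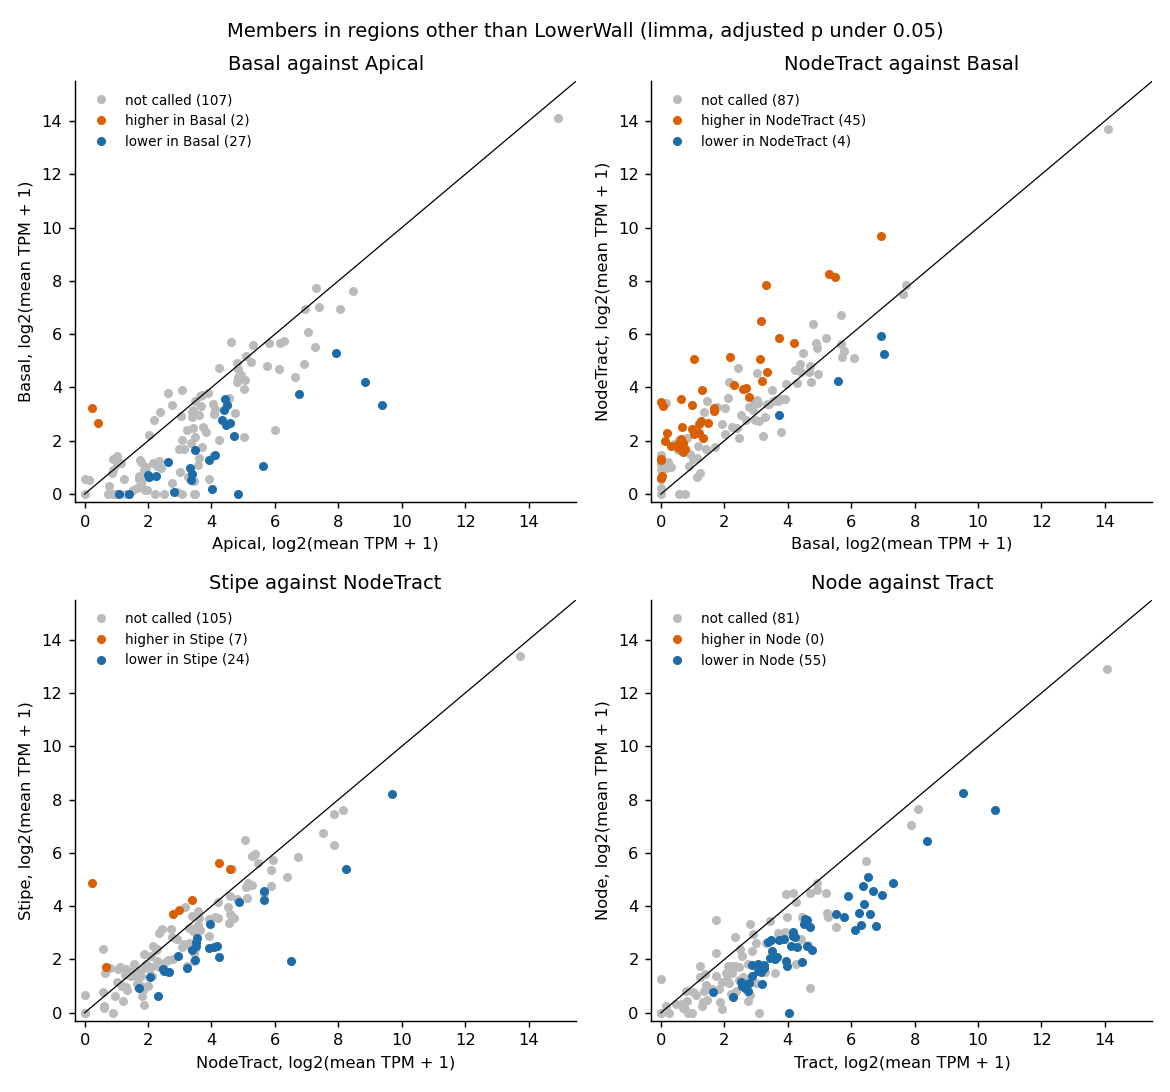
Mean level of the 136 tested members as log2(mean TPM + 1) in 2 regions other than LowerWall, 1 panel per comparison; each point is a member, coloured by the limma call at an adjusted p under 0.05, and the line marks equal levels. Most members lie below the line for Node against Tract (55 lower, 0 higher) and for Basal against Apical (27 lower, 2 higher).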

How the data were processed

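The authors deposited TPM values; per the submitters' processing notes, Salmon 1.10.0 was among their tools. The sources used here do not name the transcript set. The Spirodela columns summed to between 999671 and 999911. The members, comparisons and rules for naming transcripts were chosen with earlier results of these data known. Groups were the labelled regions. The 4 Node columns are numbered 1, 3, 5 and 6, unlike the labelled samples, and entered as replicates without a number.

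Regions were compared with limma 3.58.1 in R 4.3.3, with all 28 libraries in the fit, moderated variances with a trend, a pseudocount of 1 and no replicate block. The filter on low values was applied to the libraries of each fit. The fit was tested on simulated data. The outcome of that test is not given here, so nothing about the reliability of the calls is read from it. P-values measure the spread between libraries labelled as biological replicates. Transcripts were named as the 10 highest scores, the 5 highest LowerWall means, those at the limits, the first 3 called in each direction with at least 5 TPM in the higher region, the 3 longest runs, and the 3 highest and lowest coefficients of variation, with ties. Other transcripts of the longest run's span, Sp9509d001g016120_T001 in the tests, and Sp9509d014g002590_T001 and Sp9509d007g009610_T001 as examples of spread, were chosen after their values were seen.

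To see whether replicate numbers pair libraries, deviations from the region means were correlated over all transcripts tested. Numbers were taken to pair if each of the 4 correlations exceeded 0.1. They were 0.101 to 0.400 for Basal against Apical and 0.132 to 0.501 for NodeTract against Basal, which count as paired, as do LowerWall against NodeTract (0.218 to 0.612) and against Basal (0.163 to 0.472). They were 0.0717 to 0.286 for Stipe against NodeTract and 0.0924 to 0.395 for LowerWall against Apical, which do not. The alternatives were other pseudocounts, filters, scales, fits and libraries.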

Additional observations from a re-analysis of the deposited data

Results flagged for a closer look

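Of 35 named transcripts, 9 had a LowerWall library far from the other 3, with a gap that took more of the group's range than Dixon's critical value for 4 samples. Chance gives this in about 1 of 20 groups where values are drawn at random, and that rate does not apply here. All were named on these same LowerWall values, and 4 of the 9 were named for the highest coefficient of variation, being detected in 1 library, so that their gap was fixed by the choice. The flags are therefore a description. In 8 of the 9 the library was LowerWall replicate 1, on the high side.

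The gap took 0.886 of the range for Sp9509d017g001180_T001, 0.959 for Sp9509d003g008200_T001, 0.958 for Sp9509d006g006570_T001, 0.903 for Sp9509d002g008750_T001 and 0.928 for Sp9509d002g008840_T001. It was the whole range, a value of 1, for Sp9509d017g002020_T001, Sp9509d015g002860_T001 and Sp9509d003g005140_T001, which were listed at 0 in LowerWall replicates 2 to 4. For Sp9509d009g002590_T001 it was also 1, and the library was LowerWall replicate 4. What sets LowerWall replicate 1 apart was not tested.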

How the results depend on the processing

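The rule was met by 140 to 178 transcripts when each LowerWall library was left out (178 without replicate 4), and 110 to 119 of the 142 members were kept. With Node and Tract left out of the other regions, 262 transcripts met it and 91 members (64.1%) were among the 150 highest scores. Rescaling kept 119 members and a pseudocount of 0.1 kept 136. Members without overlap numbered 60 to 83 with a LowerWall library left out.

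With 1 library left out, the members called were 15 to 33 for Basal against Apical, beside 0.627% to 1.86% of all transcripts. They were 39 to 51 for NodeTract against Basal (48.1% to 51.7% of all) and 19 to 36 for Stipe against NodeTract (37.7% to 46.8%). For Node against Tract they were 37 to 54 (11.8% to 31.4%). For Basal against Apical, 47 were called with the replicate block and 19 with only these regions in the fit. Fits added after the data were seen gave 35 without the LowerWall libraries and 50 with the block and these regions alone. With all transcripts kept, they gave 7 without the block and 0 with it. The replicate block changed no other count by more than 1.5 times. It gave 57 for NodeTract against Basal, beside 56.3% of all transcripts. For Stipe against NodeTract, whose numbers were not taken to pair, it gave 41, beside 50.1%. No block could be fitted for Node. Over all transcripts, Basal against Apical had 234 calls, 410 with a pseudocount of 0.1, 440 with the block, 87 with these regions alone, 531 with both, and 37 and 0 in the last 2 fits with all transcripts kept. It had 99 without Basal replicate 3. Node against Tract had 3936, 2111 with these regions alone, 1899 with all transcripts kept, 1984 without Node column 3 and 1861 without Tract replicate 1.

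Of 328 values of the 20 named differences under alternatives, 269 kept direction and call, 59 lost the call and 0 reversed. Among the 20 named differences, 12 lost the call under at least some alternative.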

Other observations

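Within the run ending in Sp9509d008g004560_T001, a pair of members had almost the same level in every region. Sp9509d008g004440_T001 and Sp9509d008g004490_T001 averaged 50.6 and 47.8 TPM in LowerWall, 20.3 and 22.5 in Apical, 10.7 and 11.0 in Basal, 10.3 and 10.5 in NodeTract, 10.6 and 9.16 in Node, 22.3 and 21.6 in Tract, and 5.27 and 4.69 in Stipe. The neighbours Sp9509d002g008890_T001, a member, and Sp9509d002g008900_T001, which was not, both averaged 0.0443 TPM in Basal. Whether these pairs share sequence was not tested.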
